A study of Mus musculus with 9 samples.

Results

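High-fat feeding was compared with control in the liver of C57BL/6 mice, over every gene that reached at least 1 FPKM (fragments per kilobase of gene, scaled to library size) in at least 3 of the 6 libraries of the 2 groups. The rule kept 10653 of the 54007 genes and gene models in the table and used no difference between the groups. At its edge, Tlr13 was kept with a third-highest value of 1.00035 FPKM and Ier3 was left out with 0.999225 FPKM. The mice were 6 weeks old at the start, with 15 animals per group, and the liver libraries come from postnatal day 98. Control replicates 1, 2 and 4 stand against replicates 1, 2 and 3 of the high-fat diet (HFD). Mice on that diet that also received the gut bacterium Papillibacter cinnamivorans by gavage (HFD+Pc; replicates 1, 3 and 4) entered the model to estimate the spread between libraries, and are not compared here. All mice share the strain, and no genotype, transgene or drug is named in the labels. The labels give neither the composition of the diets, the sex, the fasting state or the hour of sampling, nor how many mice went into each library. The p-values therefore measure the spread between these libraries.

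The liver takes up fatty acids, stores them as triglyceride in lipid droplets, exports them in lipoproteins and burns them in mitochondria and peroxisomes. It also makes fatty acids, cholesterol and glucose of its own, under the control of insulin, glucagon and the sterol sensors of the SREBP family. Hepatocytes hold most of its RNA and secrete most plasma proteins, beside sinusoidal endothelial cells, Kupffer cells (resident macrophages) and stellate cells. In rodents a high-fat diet is known to load hepatocytes with triglyceride and to change insulin, nuclear receptor and stress signalling.

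Depth was similar, with 16562019 to 18930316 reads per library once whole reads were worked back from the FPKM, and each library had 10473 to 10587 genes at 1 FPKM or more. In a gene of 1 kb, 3 reads, the floor used for low values, were worth 0.160 to 0.178 FPKM, which covers counting error only. Hepatocyte markers were abundant in every library, with Alb (serum albumin, the main plasma protein) at 38002, 39245 and 38695 FPKM in the controls and 26116, 27141 and 26086 FPKM in HFD. All 3 HFD values lay below all 3 control values, but Alb did not pass the test (-0.55 ± 0.16, limma adjusted p = 0.0531). Of 21 markers of pancreas, gut and muscle, 9 were at 0 in all 6 libraries. In bulk tissue, fewer cells of a type and less RNA per cell cannot be told apart, and FPKM give each transcript as a share of its library. Gapdh, a glycolytic enzyme that every cell uses, was listed at 0.815, 0.627 and 1.26 FPKM in the controls and 0.804, 0.437 and 0.691 in HFD. Why it is listed so low was not tested, and genes with near-identical copies are marked as uncertain below.

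Values are given below in the order control 1, 2 and 4 and HFD 1, 2 and 3. A difference is HFD minus control in log2(FPKM + 1), given ± SE, and the added 1 shrinks it for genes of low level. A gene is said to rise or fall where its limma p stayed under 0.05 after Benjamini-Hochberg adjustment over the 10653 genes. By that test 1096 genes (10.3%) differed, 505 (4.74%) higher and 591 (5.55%) lower in HFD. Scaling FPKM by plain read totals instead, a setting added after the data were seen, gave 842 higher and 379 lower, and 69% of the calls higher against 46.1%. It moved the median gene from 0.00 to 0.06. The 2 groups did not overlap for 33.1% of genes, 1746 (16.4%) with all HFD values higher and 1781 (16.7%) with all lower. Most changes were small, with a median size of 0.49 for rises and 0.51 for falls. Among the called genes 53 rises (0.498% of tested genes) and 64 falls (0.601%) came to at least 1 on the log2(FPKM + 1) scale. Without adjustment, 2984 genes (28%) had p under 0.05.

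Some genes met the minimum of 1 FPKM through 1 group alone. Of the tested genes 71 were under it in every control, 33 of them among the rises, and 54 were under it in every HFD library, 25 of them among the falls. Such genes had to differ to be tested, so those named below are given by their values, with no test, and a list count that holds such a call is also given without it. Over the other 10528 genes 472 (4.48%) rose and 566 (5.38%) fell. Plain read totals gave more rises in 14 of the 54 gene lists and fewer falls in 11, by over 1.5 times, and several of these shifts stand beside the list counts.

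The calls changed when 1 library was left out. Their number was 390, 357 and 606 without control 1, 2 and 4, and 461, 586 and 546 without HFD 1, 2 and 3. Without HFD+Pc 1, 3 and 4 it was 1143, 808 and 881. A fit without a control or HFD library keeps only 2 libraries of that group and has less power. A lost call can therefore reflect the smaller group or the library left out, and these were not separated. In all 9 fits that left out 1 library, 234 genes were called, 114 higher and 120 lower. These are called stable below, a word that covers the 9 fits alone. Many stable genes lost their call in other settings, such as Mat1a and Ahcy with replicate number in the model and G6pc and Por with no FPKM filter. Of all 1096 calls, 199 were also called with replicate number in the model and 195 with no filter. Both counts are below the 234 stable genes. For calls that were not stable, parentheses name the libraries whose omission ended the call and the highest limma adjusted p among those fits. HFD 2 was the HFD library closest to the controls for 40.2% of called genes, HFD 3 for 30.7% and HFD 1 for 29.0%. Called genes were more frequent at higher level, with 6.93% of genes under a mean of 3 FPKM against 15.9% between 30 and 100 FPKM. Differences also varied with gene length. The median was -0.08 among 884 genes under 1000 bases, of which 31 rose and 59 fell. It was 0.03 among 1577 genes of 8000 bases or more, of which 60 rose and 52 fell. The part of gene length in the lists below was not tested.

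**Figure D1:**
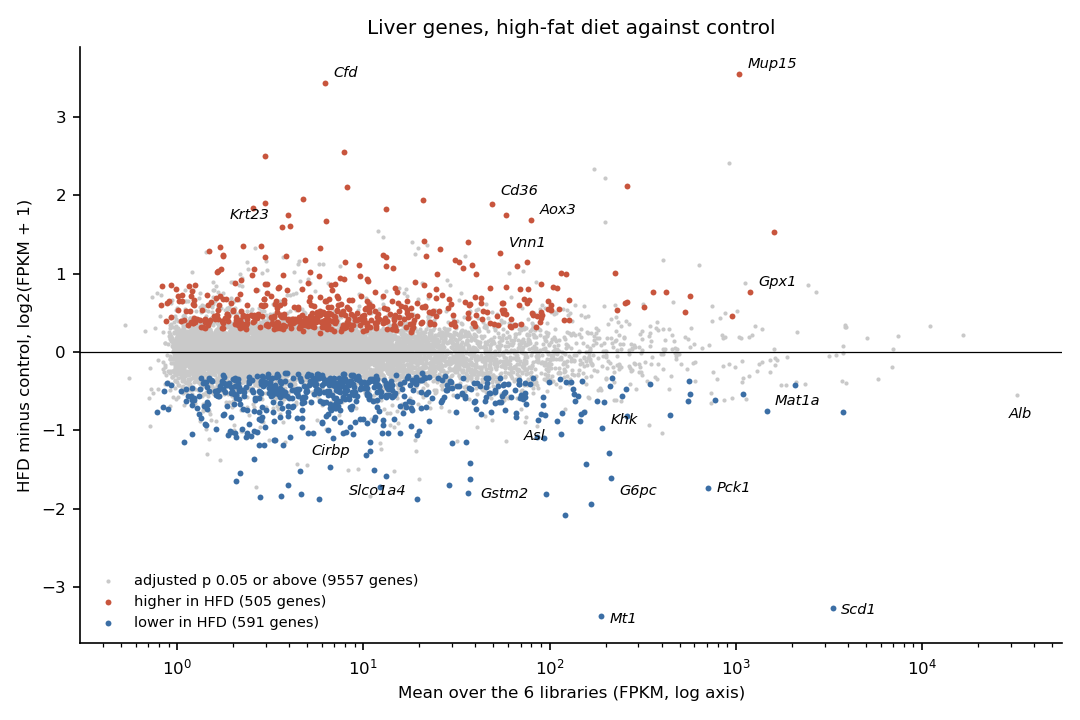
Each point is 1 of the 10653 tested genes, with its mean FPKM over the 6 libraries (log axis) against its difference on the log2(FPKM + 1) scale. The 505 rises in red and 591 falls in blue are spread over all levels, and Mup15 (3.54) and Mt1 (-3.37) lie farthest from 0.

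Among genes of fatty acid uptake and storage, a surface receptor and a regulator of storage rose. Cd36, the receptor that brings long-chain fatty acids into the cell, was at 22.5, 19.3 and 18.3 FPKM in the controls and 96.3, 62.03 and 75.7 FPKM in HFD. Its lowest HFD value was more than double its highest control value, a 3.89-fold rise of the mean (1.89 ± 0.15, limma adjusted p = 0.00223) that was stable. Pparg, the nuclear receptor that drives fat storage genes, was at 2.28, 1.63 and 1.12 FPKM in the controls and 4.48, 2.80 and 3.55 FPKM in HFD and rose without overlap (0.79 ± 0.17, limma adjusted p = 0.0221). Mogat1, which makes diacylglycerol and is a known target of that receptor, was at 0.412, 0.416 and 0.390 FPKM in the controls and 3.46, 1.27 and 2.94 FPKM in HFD, kept through the HFD libraries alone. Fitm1, which helps partition fat into droplets, rose by 1.22.

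The same list held 4 falls. G0s2, the inhibitor of adipose triglyceride lipase, was at 369.9, 264 and 166 FPKM in the controls and 93.5, 57.8 and 51.4 FPKM in HFD. Every HFD library was below every control, and the fall was stable (-1.94 ± 0.31, limma adjusted p = 0.0101). Pnpla2, the lipase that G0s2 inhibits, was at 46.4, 44.5 and 52.9 FPKM in the controls and 30.9, 25.7 and 35.6 FPKM in HFD and fell as well (-0.63 ± 0.14, limma adjusted p = 0.0251). Angptl4, a secreted lipoprotein lipase inhibitor, and Hilpda, a droplet protein, also fell (-0.53 and -0.52). In all, 4 of 27 (14.8%) genes of uptake, PPAR-gamma targets and droplets rose and 4 (14.8%) fell, against 4.74% and 5.55% of all tested genes. Without Mogat1 and Plin4, kept through HFD alone, 3 of 25 (12%) rose. Over all 27, with plain read totals 4 rose and 2 fell. Their median was -0.03, with a sign that changed with the scaling (-0.04 to 0.03). Without 1 library the rises numbered 1 to 4, fewest without HFD 1 or 3, and the falls 1 to 4, fewest without control 2 or 4 or HFD 1 or 2. The single calls lost were Pparg (without control 2 or 4 or HFD 1 or 3; adjusted p up to 0.0662), Fitm1 (without control 2 or HFD 1, 2 or 3; adjusted p up to 0.0752), Pnpla2 (without control 1, 2 or 4 or HFD 1 or 2; adjusted p up to 0.0710), Angptl4 (7 of 9 fits, all but those without control 1 or HFD+Pc 1; adjusted p up to 0.131) and Hilpda (7 of 9 fits, all but those without HFD+Pc 1 or 4; adjusted p up to 0.124).

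In triglyceride and phospholipid synthesis, 1 of 21 (4.76%) genes rose and 2 (9.52%) fell. Chpt1, the cholinephosphotransferase that makes phosphatidylcholine, was at 29.7, 31.9 and 28.5 FPKM in the controls and 53.9, 43.9 and 50.9 FPKM in HFD and rose in a stable manner (0.70 ± 0.09, limma adjusted p = 0.00570). Agpat2 and Agpat3, acyltransferases that make phosphatidic acid, fell by 0.38 and 0.39. Their calls were lost without 1 library, for Agpat2 (6 of 9 fits, all but those without HFD 2 or HFD+Pc 1 or 3; adjusted p up to 0.110) and Agpat3 (without control 2 or 4 or HFD 1; adjusted p up to 0.0573). The median of the list was -0.05, and its sign changed with the scaling (-0.06 to 0.00).

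Fatty acid synthesis and desaturation held the second-largest fall of all, in Scd1, the enzyme that makes monounsaturated fatty acids. It was at 4569, 4899.7 and 6869 FPKM in the controls and 226, 241 and 3173 FPKM in HFD. HFD 1 and 2 were far below the controls, while HFD 3 was closer to them than to the other 2 HFD libraries. The fall (-3.26 ± 0.85, limma adjusted p = 0.0437) was also called without HFD 3, where it came to -4.51 with a limma adjusted p of 2.61e-05. It was lost in the other 8 fits without 1 library, with an adjusted p of up to 0.138. Fabp5, a fatty acid binding protein outside this list, was low in the same libraries, at 6.24, 5.26 and 11.4 FPKM in the controls and 0.733, 0.784 and 3.23 FPKM in HFD, and fell (-1.81 ± 0.37, limma adjusted p = 0.0212). Scd2, a relative of Scd1 found mostly outside the liver, fell from 2.71, 2.84 and 2.81 FPKM to 1.37, 1.91 and 1.86 (-0.49 ± 0.10, limma adjusted p = 0.0211). Both lost their call without 1 library, Fabp5 (without control 1, 2 or 4 or HFD 1 or 2; adjusted p up to 0.0752) and Scd2 (without control 1, 2 or 4 or HFD 1; adjusted p up to 0.0664).

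Fasn and Srebf1 were not called. Fasn, fatty acid synthase, was at 19.4, 16.7 and 37.8 FPKM in the controls and 18.7, 23.2 and 52.5 FPKM in HFD, with HFD 3 the highest of the 6 and the groups overlapping (0.29 ± 0.51, limma adjusted p = 0.751). Srebf1, the transcription factor of lipogenesis, was at 31.4, 33.4 and 23.9 FPKM in the controls and 30.1, 43.7 and 40.5 FPKM in HFD and overlapped as well (0.35 ± 0.23, limma adjusted p = 0.337). In sum 2 of 22 (9.09%) genes of the list fell and 0 rose, with a median of -0.48. The summed level of the list was 6568, 6672 and 8884 FPKM in the controls and 1407, 1538 and 5455 FPKM in HFD, so that HFD 3 stood nearer to the controls. Without 1 library the falls numbered 0 to 8, fewest without control 1, 2 or 4 or HFD 1.

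Cholesterol synthesis genes rose in part. Hmgcs1, which makes the precursor of mevalonate, was at 31.2, 20.7 and 25.8 FPKM in the controls and 73.2, 77.8 and 120.3 FPKM in HFD. All HFD libraries were above all controls and HFD 3 was the highest (1.75 ± 0.32, limma adjusted p = 0.0162). Msmo1, a sterol methyl oxidase, was at 10.9, 6.82 and 6.47 FPKM in the controls and 27.8, 28.8 and 44.5 FPKM in HFD and showed the same order (1.94 ± 0.39, limma adjusted p = 0.0198). Stard4, a cholesterol carrier of the cytosol, rose by 0.77. Together 3 of 24 (12.5%) genes rose and 0 fell, with a median of 0.63 against 0.00 over all tested genes, and 19 of the 24 differences were above 0, while with plain read totals 6 rose and 0 fell. Srebf2, the transcription factor of the pathway, was not called (0.59 ± 0.17, limma adjusted p = 0.0608). The rises numbered 0 to 8, fewest without control 2 or 4 or HFD 3 over the fits without 1 library, and the calls lost were Hmgcs1 (without control 2 or 4 or HFD 3; adjusted p up to 0.0659), Msmo1 (6 of 9 fits, all but those without HFD+Pc 1, 3 or 4; adjusted p up to 0.0755) and Stard4 (without control 2 or 4 or HFD 1, 2 or 3; adjusted p up to 0.108). Fdps, a core enzyme of the pathway, stayed under the filter, like Gapdh.

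Of the lipoprotein genes, none rose and 7 of 28 (25%) fell. Apom, an apolipoprotein of HDL that carries sphingosine-1-phosphate, was at 186, 183 and 199 FPKM in the controls and 89.5, 120.2 and 100.3 FPKM in HFD and fell (-0.88 ± 0.13, limma adjusted p = 0.00620). Apoa5, which promotes the clearance of triglyceride-rich particles, was at 565, 544 and 575 FPKM in the controls and 291, 304 and 378 FPKM in HFD (-0.80 ± 0.12, limma adjusted p = 0.00746). Tm6sf2, needed to load VLDL with lipid, fell from 16.1, 17.9 and 23.2 FPKM to 11.2, 8.49 and 10.4 (-0.85 ± 0.13, limma adjusted p = 0.00864). For these 3 genes the groups were well apart and the calls stable.

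Apoa4, made by intestine and liver in response to fat and fasting, was at 104, 197 and 292 FPKM in the controls and 42.9, 67.7 and 25.7 FPKM in HFD and fell (-2.08 ± 0.41, limma adjusted p = 0.0191), with control 1 the control nearest to HFD. Apoa1, the main HDL protein, was at 5069.5, 4340.2 and 4815 FPKM in the controls and 2242, 3602 and 2672 FPKM in HFD (-0.77 ± 0.20, limma adjusted p = 0.0389), with HFD 2 the nearest to the controls. Apoc4 (-0.81) and the ubiquitin ligase Mylip (-0.58) completed the falls. The list median was -0.24, and falls numbered 3 to 8, fewest without control 2 or 4 or HFD 1 or 3. Calls lost without 1 library were Apoa4 (without control 2 or 4 or HFD 1 or 3; adjusted p up to 0.0710), Apoa1 (6 of 9 fits, all but those without HFD 2 or HFD+Pc 1 or 4; adjusted p up to 0.109), Apoc4 (without control 1, 2 or 4 or HFD 1 or 3; adjusted p up to 0.0834) and Mylip (without control 2 or 4 or HFD 1 or 3; adjusted p up to 0.0757).

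Genes of fatty acid oxidation differed by small amounts. Of 31 genes 28 had a positive difference and the median was 0.24, but 4 (12.9%) rose and 2 (6.45%) fell. Cpt2, the inner membrane step of carnitine-dependent import, was at 78.8, 86.5 and 82.3 FPKM in the controls and 119.9, 106 and 138 FPKM in HFD (0.54 ± 0.11, limma adjusted p = 0.0220). The rate-limiting outer membrane step, Cpt1a, went the opposite way, at 97.7, 111 and 123 FPKM in the controls and 74.3, 70.02 and 77.2 FPKM in HFD (-0.57 ± 0.13, limma adjusted p = 0.0242). Acat1, Bdh1 and Decr2, of ketone body metabolism and of unsaturated fatty acid oxidation, rose by 0.40, 0.37 and 0.41. Etfb, which passes electrons from the dehydrogenases, fell by 0.67. The list count depended on the scaling, and with plain read totals 9 rose and 1 fell. All 6 calls were lost in some of the fits without 1 library. Rises numbered 0 to 6, fewest without control 1, 2 or 4 or HFD 1 or 3, and falls 0 to 2, fewest without control 2 or 4 or HFD 2. The losses were Cpt2 (without control 1, 2 or 4 or HFD 1 or 3; adjusted p up to 0.0717), Cpt1a (without control 2 or 4 or HFD 1 or 2; adjusted p up to 0.0711), Acat1 (7 of 9 fits, all but those without HFD 2 or HFD+Pc 1; adjusted p up to 0.109), Bdh1 (6 of 9 fits, all but those without HFD 2 or HFD+Pc 1 or 3; adjusted p up to 0.117), Decr2 (7 of 9 fits, all but those without HFD 2 or HFD+Pc 1; adjusted p up to 0.121) and Etfb (7 of 9 fits, all but those without HFD 1 or HFD+Pc 1; adjusted p up to 0.117).

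PPAR-alpha is the fatty acid sensor of the fasted liver, and some of its targets rose. Vnn1, a pantetheinase, was at 30.6, 32.5 and 30.7 FPKM in the controls and 96.9, 60.8 and 74.97 FPKM in HFD, with tight controls and every HFD library higher (1.26 ± 0.16, limma adjusted p = 0.00518). Aldh3a2, a fatty aldehyde dehydrogenase, was at 84.3, 77.998 and 65.9 FPKM in the controls and 168, 125 and 173 FPKM in HFD (1.01 ± 0.14, limma adjusted p = 0.00578). Both rises were stable. The peroxisome factor Pex11a (0.62) and the mitochondrial carrier Ucp2 (0.49) rose too, making 4 of 22 (18.2%) with 0 falls and a list median of 0.02. The count covers the members of this list alone. Cpt1a and Angptl4, which fell (-0.57 and -0.53), are counted in other lists above. Fgf21, the fasting hormone of the same receptor, was at 4.16, 3.03 and 4.42 FPKM in the controls and 1.43, 0.796 and 3.19 FPKM in HFD and was not called (-0.87 ± 0.26, limma adjusted p = 0.0652), with HFD 3 inside the control range. It passed without HFD 3 (-1.21, limma adjusted p = 0.00886) and in no other fit without 1 library. Rises numbered 2 to 5, fewest without control 2 or HFD 1 or 3, and the calls lost were Pex11a (8 of 9 fits, all but that without HFD 2; adjusted p up to 0.117) and Ucp2 (without control 2 or HFD 1 or 3; adjusted p up to 0.0710).

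Several genes of glucose production fell. Pck1, the enzyme that commits oxaloacetate to gluconeogenesis, was at 1017, 1220.3 and 1049 FPKM in the controls and 298, 329 and 358 FPKM in HFD. G6pc, the subunit of glucose-6-phosphatase that releases free glucose, was at 352, 381 and 241 FPKM in the controls and 88.3, 117 and 108 FPKM in HFD. In both genes the highest HFD value was below the lowest control, and both falls were stable. Pck1 differed by -1.73 (limma adjusted p = 0.00589) and G6pc by -1.61 (limma adjusted p = 0.0126). Slc37a4, the transporter that feeds this phosphatase, and Fbp1, the fructose bisphosphatase, fell by 0.74 and 0.53.

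Genes of glycolysis and fructose use were among the falls as well. Khk, the fructokinase, was at 263, 221 and 281 FPKM in the controls and 137, 128 and 122 FPKM in HFD, a stable fall with the HFD libraries close to each other (-0.97 ± 0.12, limma adjusted p = 0.00434). Gpi1, the glucose phosphate isomerase, fell from 32.1, 29.6 and 35.3 FPKM to 20.4, 18.9 and 23.5 (-0.61 ± 0.11, limma adjusted p = 0.0131). Pklr, the liver pyruvate kinase, and Pgk1, a phosphoglycerate kinase, fell by 1.15 and 0.39. Of the list 8 of 22 (36.4%) genes fell, none rose, and the median was -0.35. Its summed level was 5947, 6049.8 and 6054 FPKM in the controls and 3892, 3766 and 4309 FPKM in HFD. Falls numbered 4 to 9, fewest without HFD 2, and calls were lost for Slc37a4 (without control 1, 2 or 4 or HFD 1 or 2; adjusted p up to 0.0701), Fbp1 (without control 1 or 2 or HFD 2; adjusted p up to 0.0725), Pklr (without HFD 1 or 2; adjusted p up to 0.0545) and Pgk1 (6 of 9 fits, all but those without HFD+Pc 1, 3 or 4; adjusted p up to 0.0766).

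In insulin and glucagon signalling, 1 of 24 (4.17%) genes rose and 5 (20.8%) fell. Igfbp1, a secreted IGF binding protein that insulin represses, was at 164, 203 and 81.6 FPKM in the controls and 24.98, 57.9 and 41.1 FPKM in HFD and fell (-1.81 ± 0.35, limma adjusted p = 0.0191). Irs2, the insulin receptor substrate, was at 12.6, 14.8 and 9.11 FPKM in the controls and 3.61, 5.38 and 7.46 FPKM in HFD (-1.04 ± 0.25, limma adjusted p = 0.0334). Sik1, a kinase induced by cyclic AMP, was at 11.3, 14.6 and 3.85 FPKM in the controls and 1.41, 1.90 and 1.70 FPKM in HFD (-1.87 ± 0.35, limma adjusted p = 0.0169). In these 3 genes control 4 was lowest among the controls, and the groups did not overlap. Igfbp2 and Akt1 fell by 0.47 and 0.37, and Pik3r1, the regulatory subunit of PI3 kinase, rose by 0.38. The list median was -0.11, and with plain read totals 1 rose and 3 fell. Without 1 library the falls numbered 0 to 3, fewest without control 2 or HFD 1, and calls were lost for Igfbp1 (without control 1 or 2 or HFD 1 or 3; adjusted p up to 0.0754), Irs2 (without control 1 or 2 or HFD 1 or 2; adjusted p up to 0.110), Sik1 (without control 1 or 2 or HFD 1, 2 or 3; adjusted p up to 0.0702), Igfbp2 (8 of 9 fits, all but that without control 1; adjusted p up to 0.134), Akt1 (all 9 fits; adjusted p up to 0.131) and Pik3r1 (without control 1 or 2 or HFD 2; adjusted p up to 0.0829). Slc25a25, a mitochondrial ATP-Mg carrier among the largest falls, was at 76.3, 64.6 and 31.6 FPKM in the controls and 11.8, 22.6 and 11.9 FPKM in HFD (-1.80 ± 0.37, limma adjusted p = 0.0207), a call lost in the fits without control 1 or 2 or HFD 1 or 3, with an adjusted p up to 0.0811. In glycogen metabolism the kinase subunit Phkb rose by 0.45 and Gsk3a fell by 0.34 among 14 genes (with plain read totals 3 rose and 0 fell), calls lost for Phkb (without control 2; adjusted p up to 0.0548) and Gsk3a (6 of 9 fits, all but those without control 2 or HFD+Pc 1 or 4; adjusted p up to 0.109).

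**Figure D2:**
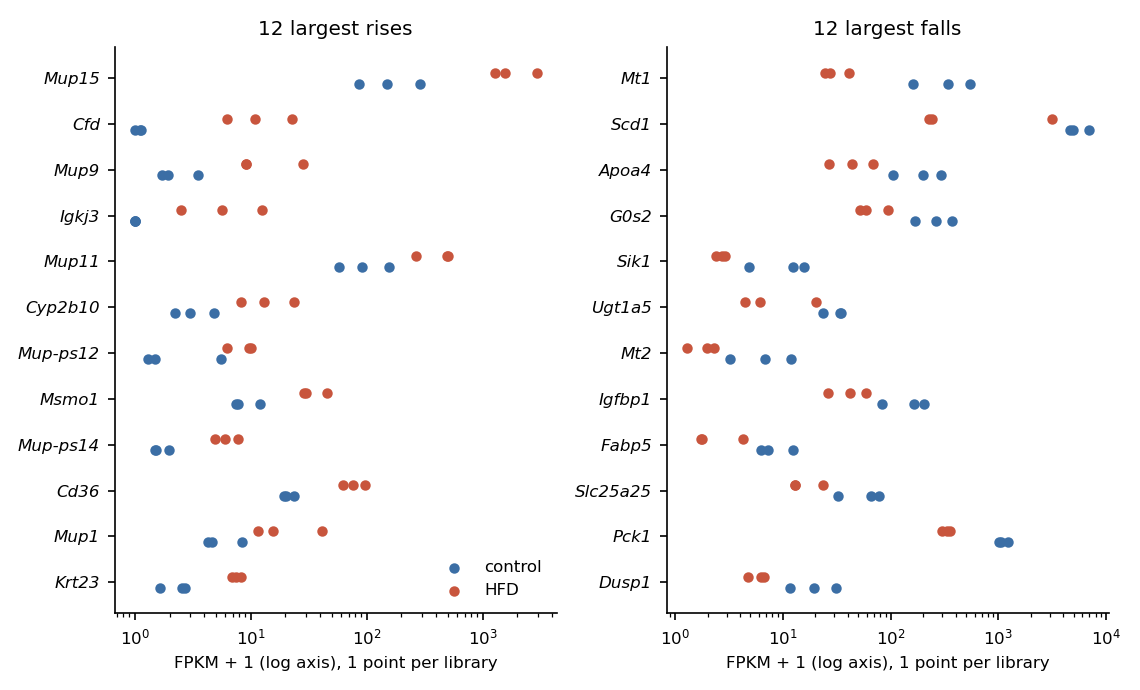
FPKM + 1 of each library (log axis) for the 12 largest rises and the 12 largest falls, with control in blue and HFD in red. Scd1 has HFD 3 apart from the other 2 HFD libraries, whereas the 3 HFD values of Pck1 lie close together. Among the rises Cfd, Igkj3 and Mup-ps14 were kept through HFD alone.

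Enzymes of methyl group metabolism were among the falls. Mat1a, which makes S-adenosylmethionine in liver, was at 1645, 1795 and 2083 FPKM in the controls and 1054, 980.2 and 1230.2 FPKM in HFD (-0.76 ± 0.13, limma adjusted p = 0.0127). Ahcy, which removes the product of methylation reactions, was at 838, 938 and 1038 FPKM in the controls and 600.2, 619.9 and 615 FPKM in HFD (-0.61 ± 0.10, limma adjusted p = 0.0120). Both falls were stable and without overlap. Gnmt, which consumes surplus S-adenosylmethionine, was at 1274, 1242 and 1389 FPKM in the controls and 886, 939 and 871 FPKM in HFD (-0.53 ± 0.13, limma adjusted p = 0.0354), a call lost in 6 of 9 fits, all but those without HFD+Pc 1, 3 or 4, with an adjusted p up to 0.0902. Nnmt, the nicotinamide methyltransferase, was at 52.8, 48.99 and 48.1 FPKM in the controls and 58.03, 56.8 and 56.5 FPKM in HFD and did not pass (0.19 ± 0.15, limma adjusted p = 0.431). In all 3 of 21 (14.3%) genes fell, 0 rose, and the median was -0.12. Falls numbered 2 to 3, fewest without control 2 or 4 or HFD 1, 2 or 3.

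Among 16 genes of the urea cycle and ammonia 1 (6.25%) rose and 1 (6.25%) fell, close to the 4.74% and 5.55% of all tested genes. Otc, which makes citrulline in mitochondria, was at 78.3, 86.4 and 78.8 FPKM in the controls and 113, 123 and 120.1 FPKM in HFD and rose (0.55 ± 0.10, limma adjusted p = 0.0129). Asl, which releases arginine, was at 134, 164 and 171 FPKM in the controls and 67.5, 74.3 and 83.8 FPKM in HFD and fell (-1.04 ± 0.13, limma adjusted p = 0.00434). Both were stable, while the median of the list changed sign with the scaling (-0.01 to 0.07).

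Amino acid breakdown was mixed in the same way, with 3 of 38 (7.89%) genes higher, 3 (7.89%) lower and a median whose sign depended on the scaling (-0.08 to 0.00). Acmsd, which diverts tryptophan from NAD synthesis, was at 15.1, 18.6 and 26.8 FPKM in the controls and 3.93, 6.21 and 8.36 FPKM in HFD (-1.57 ± 0.24, limma adjusted p = 0.00937). Hibadh, of valine breakdown, was at 25.8, 26.2 and 23.8 FPKM in the controls and 34.7, 33.9 and 37.9 FPKM in HFD (0.47 ± 0.09, limma adjusted p = 0.0132). These calls were stable, the fall of Acmsd being the larger. Got1, the cytosolic aspartate transaminase, was at 237, 199 and 237 FPKM in the controls and 56.1, 66.4 and 150.5 FPKM in HFD (-1.43 ± 0.32, limma adjusted p = 0.0277), with HFD 3 again nearest to the controls. Kmo (0.49) and Aldh6a1 (0.43) rose and Sdsl (-0.89) fell. The counts moved with the scaling, and with plain read totals 6 rose and 3 fell. Rises numbered 1 to 3, fewest without control 1 or 2 or HFD 1 or 3, falls 1 to 4, fewest without control 1 or 4 or HFD 1 or 2, and calls were lost for Got1 (without control 1, 2 or 4 or HFD 1 or 2; adjusted p up to 0.0882), Kmo (without control 1 or 2 or HFD 1, 2 or 3; adjusted p up to 0.0754), Aldh6a1 (without control 1, 2 or 4 or HFD 1 or 3; adjusted p up to 0.0701) and Sdsl (without control 1 or 4 or HFD 1 or 2; adjusted p up to 0.0571). Of the ATF4 targets, induced when amino acids are short, Atf5 fell by 0.77 and Eif4ebp1 by 0.50 among 15 genes, calls lost for Atf5 (without control 1 or 4 or HFD 1 or 2; adjusted p up to 0.0746) and Eif4ebp1 (6 of 9 fits, all but those without HFD+Pc 1, 3 or 4; adjusted p up to 0.0716).

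Among bile acid genes, several membrane carriers held stable changes. Slco1a4, an organic anion uptake carrier, was at 17.6, 16.5 and 17.8 FPKM in the controls and 7.38, 4.54 and 4.71 FPKM in HFD, with a wide gap between the groups (-1.51 ± 0.15, limma adjusted p = 0.00223). Abcc3, an exporter toward the blood, was at 46.6, 41.3 and 37.6 FPKM in the controls and 77.2, 78.4 and 68.5 FPKM in HFD (0.82 ± 0.10, limma adjusted p = 0.00434). Slco1b2, the main bile acid and drug uptake carrier of its family, was at 196, 211 and 201 FPKM in the controls and 325, 340.4 and 282 FPKM in HFD (0.64 ± 0.10, limma adjusted p = 0.00931). All 3 calls were stable, 1 fall and 2 rises. Klb, the co-receptor through which FGF15 restrains bile acid synthesis, fell from 11.7, 11.4 and 12.3 FPKM to 8.02, 7.91 and 9.17 (-0.45 ± 0.08, limma adjusted p = 0.0120), also stable.

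The enzymes of bile acid synthesis differed from each other. Cyp7a1, the rate-limiting enzyme, was at 22.03, 17.6 and 8.08 FPKM in the controls and 14.5, 10.5 and 18.9 FPKM in HFD, with the groups overlapping (-0.04 ± 0.32, limma adjusted p = 0.948). Cyp8b1, which makes cholic acid, fell by 0.41, Cyp39a1 by 1.15, and Akr1c6 rose by 0.77. The export pump Abcb11 rose by 0.55. Of the list 4 of 26 (15.4%) rose and 4 (15.4%) fell, with a median of 0.02. Rises numbered 2 to 4, fewest without HFD 1 or 2, falls 2 to 4, fewest without control 1 or HFD 1, 2 or 3, and calls were lost for Cyp8b1 (8 of 9 fits, all but that without control 4; adjusted p up to 0.142), Cyp39a1 (without control 1 or HFD 1, 2 or 3; adjusted p up to 0.0954), Akr1c6 (without HFD 1 or 2; adjusted p up to 0.0593) and Abcb11 (6 of 9 fits, all but those without control 4 or HFD+Pc 1 or 3; adjusted p up to 0.113).

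Drug-metabolising genes were divided. Cyp2b10, the classic target of the xenobiotic receptor CAR, was at 1.24, 2.01 and 3.82 FPKM in the controls and 12.1, 7.28 and 22.6 FPKM in HFD and rose (2.10 ± 0.37, limma adjusted p = 0.0136). Por, the reductase that supplies electrons to all microsomal P450 enzymes, was at 129, 128 and 123 FPKM in the controls and 58.5, 42.95 and 79.9 FPKM in HFD and fell (-1.10 ± 0.19, limma adjusted p = 0.0124). Ahr, the aryl hydrocarbon receptor, rose from 6.28, 5.61 and 5.01 FPKM to 8.37, 8.64 and 10.2 (0.60 ± 0.10, limma adjusted p = 0.00909). The changes of Por and Ahr were stable, and that of Cyp2b10 was lost in the fits without control 1 or 2, with an adjusted p up to 0.0564. Of 15 genes of these receptors and their P450 targets 2 (13.3%) rose and 1 (6.67%) fell, with a median of 0.15 and rises of 1 to 3, fewest without control 1 or 2, and with plain read totals 4 rose and 1 fell. Among other Cyp2 enzymes 2 of 23 (8.7%) rose and 2 (8.7%) fell, with a median of 0.07. Cyp2j5, an arachidonic acid epoxygenase, was at 208, 196 and 191 FPKM in the controls and 291, 310.4 and 321 FPKM in HFD, a stable rise (0.63 ± 0.10, limma adjusted p = 0.00956). Cyp2c29 rose (0.51) and Cyp2d40 and Cyp2c68 fell (-0.72 and -0.66, the latter with overlapping groups), calls lost for Cyp2c29 (8 of 9 fits, all but that without HFD 2; adjusted p up to 0.124), Cyp2d40 (without control 2 or HFD 1; adjusted p up to 0.0587) and Cyp2c68 (7 of 9 fits, all but those without control 2 or HFD 1; adjusted p up to 0.124). Families of near-identical genes such as Cyp2c leave the assignment of reads uncertain.

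Conjugating enzymes showed the same division by gene. Gstm2, a mu-class glutathione transferase, was at 48.4, 52.6 and 70.3 FPKM in the controls and 18.8, 14.8 and 19.8 FPKM in HFD (-1.62 ± 0.23, limma adjusted p = 0.00746). Gstk1, the transferase of mitochondria and peroxisomes, was at 58.7, 61.5 and 69.6 FPKM in the controls and 117, 102 and 130.4 FPKM in HFD (0.87 ± 0.11, limma adjusted p = 0.00518). Both were stable, a fall and a rise. Gstm3 (-1.69) and Gstm6 (-0.59) fell and Gstm4 rose (0.80), which makes 2 of 21 (9.52%) higher and 3 (14.3%) lower, with a median of -0.04. The Gstm genes are close relatives whose reads are uncertain, and calls were lost for Gstm3 (without control 1, 2 or 4 or HFD 1 or 2; adjusted p up to 0.1004), Gstm6 (6 of 9 fits, all but those without HFD 3 or HFD+Pc 1 or 4; adjusted p up to 0.0898) and Gstm4 (8 of 9 fits, all but that without HFD 2; adjusted p up to 0.125).

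Of the glucuronosyl and sulfotransferases 6 of 22 (27.3%) rose and 3 (13.6%) fell, with a median of 0.35. Ugt3a1, which uses N-acetylglucosamine as donor, was at 24.03, 23.8 and 17.5 FPKM in the controls and 46.6, 48.3 and 44.5 FPKM in HFD (1.07 ± 0.14, limma adjusted p = 0.00518). Ugdh, which makes the donor UDP-glucuronic acid, was at 16.6, 12.3 and 10.4 FPKM in the controls and 29.3, 21.9 and 23.8 FPKM in HFD (0.90 ± 0.16, limma adjusted p = 0.0137). Sult1a1, a phenol sulfotransferase, fell from 201, 208 and 244 FPKM to 136, 147 and 136 (-0.63 ± 0.12, limma adjusted p = 0.0160). Ugt1a9 fell by 1.03. The groups were apart in each of these 4 and the calls stable. Ugt1a5 was at 32.7, 22.6 and 33.7 FPKM in the controls and 3.49, 5.16 and 19.4 FPKM in HFD (-1.87 ± 0.46, limma adjusted p = 0.0374), with HFD 3 close to the controls, and the Ugt1a genes share exons, so their reads are uncertain. Ugt2b5, Ugt2b35, Ugt2b37 and Sult2a8 rose by 0.57, 0.54, 0.35 and 1.01. Rises numbered 2 to 5, fewest without HFD 1, and calls were lost for Ugt1a5 (8 of 9 fits, all but that without HFD 3; adjusted p up to 0.126), Ugt2b5 (without control 1 or 4 or HFD 1; adjusted p up to 0.0624), Ugt2b35 (6 of 9 fits, all but those without control 2 or HFD+Pc 1 or 4; adjusted p up to 0.0980), Ugt2b37 (all 9 fits; adjusted p up to 0.130) and Sult2a8 (without HFD 1, 2 or 3; adjusted p up to 0.0757).

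Of the targets of NRF2, the sensor of oxidants, 6 of 21 (28.6%) rose and 1 (4.76%) fell, with a median of 0.22. Osgin1, an oxidative stress growth inhibitor, was at 41.6, 42.1 and 41.4 FPKM in the controls and 83.2, 116 and 76.3 FPKM in HFD, with controls within 1 FPKM of each other (1.10 ± 0.14, limma adjusted p = 0.00518). Aox1, an aldehyde oxidase, was at 6.73, 6.35 and 5.54 FPKM in the controls and 13.3, 13.3 and 12.5 FPKM in HFD (0.96 ± 0.09, limma adjusted p = 0.00223). Cbr1, a carbonyl reductase, was at 24.03, 22.4 and 30.5 FPKM in the controls and 15.6, 14.6 and 15.3 FPKM in HFD and was the gene that fell (-0.71 ± 0.12, limma adjusted p = 0.00970). These 3 were stable. Gpx1, the abundant glutathione peroxidase, was at 939, 966 and 743 FPKM in the controls and 1835, 1526 and 1184 FPKM in HFD (0.77 ± 0.18, limma adjusted p = 0.0303), with HFD 3 nearest to the controls. Prdx1, Ephx1 and Nfe2l2, the gene of NRF2 itself, rose by 0.54, 0.67 and 0.52. The summed level of the list was 2519 to 2959 FPKM in the controls and 3540.4 to 4269 FPKM in HFD. Without 1 library the rises numbered 2 to 6, fewest without control 2 or HFD 1, and calls were lost for Gpx1 (without control 1, 2 or 4 or HFD 1 or 2; adjusted p up to 0.0834), Prdx1 (without control 1 or 2 or HFD 1; adjusted p up to 0.0595), Ephx1 (8 of 9 fits, all but that without control 1; adjusted p up to 0.134) and Nfe2l2 (7 of 9 fits, all but those without control 4 or HFD+Pc 1; adjusted p up to 0.0917).

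Major urinary proteins, small pheromone carriers that male mice secrete from the liver under growth hormone control, held the largest rise. Mup15 was at 85.4, 286 and 148 FPKM in the controls and 1276, 2925 and 1562 FPKM in HFD, 11.1-fold higher in the mean and stable (3.54 ± 0.44, limma adjusted p = 0.00519). Mup11 was at 56.3, 157 and 89.98 FPKM in the controls and 266, 508 and 491 FPKM in HFD (2.12 ± 0.38, limma adjusted p = 0.0147). Mup22 was at 682, 1142 and 679 FPKM in the controls and 1812, 2336 and 3032 FPKM in HFD (1.53 ± 0.35, limma adjusted p = 0.0293). HFD 2 was the highest HFD library for Mup15 and Mup11, and control 2 the highest control for all 3. Mup9, Mup1 and Mup8 rose from lower levels (2.55, 1.82 and 1.59). Mup10, kept through HFD alone, was at 0.423, 0.677 and 0.556 FPKM in the controls and 1.72, 1.72 and 1.28 FPKM in HFD. That made 7 of 19 (36.8%) with 0 falls and a median of 1.53, all 19 differences being above 0. Without Mup10 it was 6 of 18 (33.3%) with a median of 1.56.

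The most abundant members were not called. Mup3 was at 4483, 5266 and 4562 FPKM in the controls and 4741, 5892 and 5538 FPKM in HFD (0.17 ± 0.15, limma adjusted p = 0.473) and Mup7 at 2792, 4082 and 3011 FPKM in the controls and 2835, 6513 and 3846 FPKM in HFD (0.35 ± 0.27, limma adjusted p = 0.435). The family summed to 11251, 16695 and 13133 FPKM in the controls and 16649, 31641 and 23227 FPKM in HFD, so that HFD 1 lay just under control 2. These genes are near-identical and the assignment of reads among them is uncertain. Rises numbered 3 to 6, fewest without HFD 2, and calls were lost for Mup11 (without HFD 2; adjusted p up to 0.0532), Mup22 (without control 1 or 4 or HFD 1, 2 or 3; adjusted p up to 0.0932), Mup9 (without control 1 or 4; adjusted p up to 0.0645) and Mup1 (all 9 fits; adjusted p up to 0.146). The related pseudogene Mup-ps12 (1.95) was also among the largest rises, lost in 8 of 9 fits, all but that without control 2, with an adjusted p up to 0.124. Mup-ps14, kept through HFD alone, was at 0.502, 0.996 and 0.520 FPKM in the controls and 6.86, 5.04 and 3.91 FPKM in HFD.

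In growth hormone signalling itself, 2 of 17 (11.8%) genes rose and 1 (5.88%) fell, while 12 had a negative difference and the median was -0.27. Stat5a, a transcription factor of the pathway, was at 2.67, 2.63 and 2.73 FPKM in the controls and 4.53, 3.78 and 4.41 FPKM in HFD, a small and stable rise (0.51 ± 0.08, limma adjusted p = 0.0109). Ghr, the receptor, rose by 0.48 and Socs2, a feedback inhibitor, was at 4.14, 2.71 and 2.10 FPKM in the controls and 1.06, 0.782 and 0.936 FPKM in HFD and fell (-1.02 ± 0.25, limma adjusted p = 0.0372). Igf1, the main output of the pathway, was at 57.2, 61.3 and 46.96 FPKM in the controls and 44.2, 44.6 and 44.3 FPKM in HFD and did not pass (-0.30 ± 0.13, limma adjusted p = 0.162). Of 18 male-biased liver genes 16 had a positive difference, with a median of 0.51 and 2 (11.1%) called, Cyp4a12a (0.99) and Nudt7 (0.64), while with plain read totals 4 rose and 0 fell. Of 8 female-biased genes that were tested 7 had a negative difference, with a median of -0.86 and 1 (12.5%) called, Cyp39a1. The sex of the mice is not given in the labels, and its part in these lists was not tested. Calls lost were Ghr (8 of 9 fits, all but that without HFD+Pc 1; adjusted p up to 0.103), Socs2 (6 of 9 fits, all but those without control 4 or HFD+Pc 1 or 3; adjusted p up to 0.101), Cyp4a12a (without control 1 or 4, HFD 2 or 3 or HFD+Pc 3; adjusted p up to 0.0775), Nudt7 (7 of 9 fits, all but those without HFD+Pc 1 or 3; adjusted p up to 0.137) and Cyp39a1 (without control 1 or HFD 1, 2 or 3; adjusted p up to 0.0954).

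Metallothioneins, small proteins that buffer zinc and copper and respond to metals, glucocorticoids and inflammation, held the largest fall of all. Mt1 was at 343, 547 and 159 FPKM in the controls and 23.5, 26.4 and 39.9 FPKM in HFD (-3.37 ± 0.57, limma adjusted p = 0.0129). Mt2 was at 5.82, 11.01 and 2.26 FPKM in the controls and 0.278, 0.991 and 1.32 FPKM in HFD (-1.83 ± 0.41, limma adjusted p = 0.0271). In both the controls ranged widely, control 2 being highest and control 4 lowest, and all HFD values were below them. Mt2 has a length of 588 bases, and its value in HFD 1 is at the floor of 3 reads. Slc39a5, a zinc importer, was at 0.288, 0.476 and 0.845 FPKM in the controls and 1.35, 1.31 and 2.73 FPKM in HFD, kept through HFD alone. Of the list 1 of 12 (8.33%) rose and 2 (16.7%) fell, with a median of -0.10, the rise being that of Slc39a5. Calls were lost for Mt1 (without control 1 or 2 or HFD 1; adjusted p up to 0.0552) and Mt2 (without control 1 or 2 or HFD 1, 2 or 3; adjusted p up to 0.0949).

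The promoters of this pair are shown because both genes fell together. Each runs from 250 bases before to 50 after the start, from RefSeq on GRCm38.p6, on the plus strand. Mt1 lies at chr8:94178839-94179138 and Mt2 at chr8:94172368-94172667. Capitals mark matches on either strand to TGCNCNC, a widened form of the core that the zinc sensor MTF1 binds, and matches may overlap.
Mt1: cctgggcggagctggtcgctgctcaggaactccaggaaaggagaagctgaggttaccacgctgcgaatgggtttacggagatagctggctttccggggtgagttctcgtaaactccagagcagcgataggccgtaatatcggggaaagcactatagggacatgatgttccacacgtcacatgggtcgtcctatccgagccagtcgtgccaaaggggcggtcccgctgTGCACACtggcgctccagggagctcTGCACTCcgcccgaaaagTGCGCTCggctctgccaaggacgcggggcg
Mt2: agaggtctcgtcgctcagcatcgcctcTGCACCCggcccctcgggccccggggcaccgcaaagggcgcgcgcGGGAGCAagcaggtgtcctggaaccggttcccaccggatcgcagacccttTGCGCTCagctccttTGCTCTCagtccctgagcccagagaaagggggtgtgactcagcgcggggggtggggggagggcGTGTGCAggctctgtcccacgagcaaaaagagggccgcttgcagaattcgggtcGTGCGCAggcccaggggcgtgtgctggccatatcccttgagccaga
Mt1 held 3 matches and Mt2 held 6. At least 1 match was present in 51.03% of all 32851 promoters in the table and in 63.34% of the 7802 tested genes that have a promoter there, so its presence is common. A match describes the sequence and was not tested as a site.

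Iron and heme genes changed little, with 1 of 28 (3.57%) higher, 1 (3.57%) lower and a median whose sign depended on the scaling (-0.07 to 0.02). Hamp2, a relative of the iron hormone hepcidin, was at 8.25, 9.99 and 12.1 FPKM in the controls and 1.78, 2.80 and 4.999 FPKM in HFD, a stable fall (-1.47 ± 0.25, limma adjusted p = 0.0130). Its near-identical copy Hamp makes the reads uncertain. Uros, of heme synthesis, rose by 0.39, a call lost in the fits without control 1 or 2 or HFD 1, 2 or 3, with an adjusted p up to 0.0897.

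Heat shock proteins, the chaperones that hold and refold proteins, rose in part. Hspb1, a small chaperone that was named after its values were seen, was at 23.9, 14.1 and 18.4 FPKM in the controls and 41.02, 55.4 and 33.9 FPKM in HFD, with every HFD value higher (1.17 ± 0.21, limma adjusted p = 0.0154). Hspa4, a nucleotide exchange factor of the Hsp70 system, was at 19.4, 18.6 and 19.96 FPKM in the controls and 26.5, 26.7 and 29.7 FPKM in HFD (0.49 ± 0.09, limma adjusted p = 0.0129). Dnaja1, an Hsp40 co-chaperone, was at 13.95, 14.7 and 13.6 FPKM in the controls and 19.2, 21.8 and 20.1 FPKM in HFD (0.50 ± 0.09, limma adjusted p = 0.0129). The HFD libraries lay close together in the last 2 genes, and all 3 rises were stable. Chordc1, an Hsp90 co-chaperone, rose from 2.72, 2.39 and 3.16 FPKM to 4.87, 4.30 and 5.20 (0.63 ± 0.10, limma adjusted p = 0.00970), also stable. Hsph1, of the Hsp110 type, was at 2.55, 1.87 and 2.40 FPKM in the controls and 5.09, 4.78 and 4.45 FPKM in HFD (0.82 ± 0.17, limma adjusted p = 0.0198), a call lost in the fits without control 2 or HFD 1 or 2, with an adjusted p up to 0.0659. In all 5 of 22 (22.7%) rose and 0 fell, with a median of 0.21, and without 1 library the rises numbered 4 to 6, fewest without control 2 or HFD 1 or 2.

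The promoters of Hspb1 and Chordc1 are given as examples of the heat shock genes that rose together. They lie at chr5:135887669-135887968 and chr9:18292017-18292316 of GRCm38.p6, plus strand, from RefSeq. Capitals mark GAANNTTC, the paired core units that heat shock factor binds, which reads the same on both strands.
Hspb1: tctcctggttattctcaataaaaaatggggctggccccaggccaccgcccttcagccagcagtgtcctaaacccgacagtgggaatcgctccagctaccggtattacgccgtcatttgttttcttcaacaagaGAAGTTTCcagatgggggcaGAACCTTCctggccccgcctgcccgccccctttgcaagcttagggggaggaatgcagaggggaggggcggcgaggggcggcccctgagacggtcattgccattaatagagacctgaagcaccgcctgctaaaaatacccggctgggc
Chordc1: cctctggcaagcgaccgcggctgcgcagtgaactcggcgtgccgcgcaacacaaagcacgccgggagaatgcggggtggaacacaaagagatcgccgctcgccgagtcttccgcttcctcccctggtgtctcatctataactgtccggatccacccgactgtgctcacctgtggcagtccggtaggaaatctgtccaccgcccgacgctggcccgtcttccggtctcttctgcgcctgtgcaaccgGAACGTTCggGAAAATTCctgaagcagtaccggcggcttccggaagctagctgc
Each held 2 matches, and the promoter of Dnaja1, not printed, held 1. A match was present in 4 of the 5 heat shock genes that rose and in 5 of the 11 others with a promoter in the table, against 6.87% of tested genes with a promoter and 7.86% of all promoters. The list was chosen for its known function, and the link between matches and the rises was not tested.

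Cirbp and Rbm3, cold-inducible RNA-binding proteins, were named after their values were seen and are not members of a list. Cirbp was at 18.5, 16.3 and 12.4 FPKM in the controls and 5.48, 6.02 and 6.28 FPKM in HFD and fell (-1.26 ± 0.16, limma adjusted p = 0.00518). Rbm3, its close relative in function, was at 8.50, 7.22 and 5.60 FPKM in the controls and 3.13, 2.69 and 2.95 FPKM in HFD and fell (-1.03 ± 0.14, limma adjusted p = 0.00589). Both proteins are known to be made in greater amount at lower temperature and to vary with the daily body temperature cycle. The falls were stable, with HFD values close together and controls spread. Body temperature and the hour of sampling are not in the labels, and their part was not tested.

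The proteasome, which degrades proteins marked with ubiquitin, was also higher in part. Of 31 proteasome subunits 6 (19.4%) rose and 0 fell, with a median of 0.18, and with plain read totals 10 rose and 0 fell. Psmc6, an ATPase of the regulatory particle, was at 19.99, 18.96 and 18.7 FPKM in the controls and 29.5, 25.4 and 29.7 FPKM in HFD (0.53 ± 0.08, limma adjusted p = 0.00746). Psma1, a subunit of the core, was at 23.02, 21.2 and 24.2 FPKM in the controls and 35.9, 30.8 and 35.4 FPKM in HFD (0.56 ± 0.09, limma adjusted p = 0.0109). Psmd14, which removes ubiquitin, was at 13.01, 12.7 and 11.8 FPKM in the controls and 17.8, 17.5 and 22.7 FPKM in HFD (0.58 ± 0.11, limma adjusted p = 0.0166). These 3 were stable, with no overlap of the groups. Psma3 (0.37), Psmc2 (0.39) and Psmb2 (0.33) rose with calls lost for Psma3 (without control 1, 2 or 4 or HFD 1 or 3; adjusted p up to 0.0861), Psmc2 (7 of 9 fits, all but those without HFD+Pc 1 or 4; adjusted p up to 0.128) and Psmb2 (8 of 9 fits, all but that without HFD+Pc 1; adjusted p up to 0.132), and rises numbered 3 to 8, fewest without control 1, 2 or 4 or HFD 1 or 3. In the endoplasmic reticulum 2 of 21 (9.52%) chaperone genes rose and 0 fell, with a median of 0.24. They were Pdia3 (0.51), a disulfide isomerase, and Canx (0.33), calnexin, lost for Pdia3 (without control 2 or 4 or HFD 1 or 2; adjusted p up to 0.0899) and Canx (8 of 9 fits, all but that without HFD+Pc 1; adjusted p up to 0.132).

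Clock genes changed in part. Nr1d1, the REV-ERB alpha repressor, was at 8.91, 7.27 and 4.71 FPKM in the controls and 17.1, 13.2 and 11.6 FPKM in HFD and rose (0.93 ± 0.19, limma adjusted p = 0.0221). Its relative Nr1d2 was at 5.58, 6.21 and 4.22 FPKM in the controls and 11.2, 8.24 and 8.29 FPKM in HFD and rose (0.69 ± 0.17, limma adjusted p = 0.0341). Per1, a repressor of the clock that also responds quickly to hormones, was at 3.85, 3.87 and 2.86 FPKM in the controls and 1.31, 1.09 and 1.23 FPKM in HFD and fell (-1.03 ± 0.22, limma adjusted p = 0.0228). Bhlhe40, a repressor that feeds back on the clock, was at 21.4, 18.3 and 11.5 FPKM in the controls and 7.02, 7.35 and 10.8 FPKM in HFD and fell (-0.92 ± 0.23, limma adjusted p = 0.0372). No overlap was seen in these 4 genes. Arntl, the core activator, was at 5.10, 4.29 and 3.86 FPKM in the controls and 3.24, 3.78 and 4.59 FPKM in HFD, with overlap (-0.16 ± 0.12, limma adjusted p = 0.428). Dbp and Per2, whose daily swings are among the largest in liver, were under the filter. Dbp was at 0.715, 1.10 and 0.591 FPKM in the controls and 0.929, 0.428 and 0.0397 FPKM in HFD, and Per2 at 0.329, 0.533 and 0.878 FPKM in the controls and 1.12, 1.19 and 0.731 FPKM in HFD. Of the list 2 of 17 (11.8%) rose and 3 (17.6%) fell, with a median of -0.10, rises of 0 to 2, fewest without control 2 or HFD 1 or 2, and falls of 0 to 3, fewest without control 2. Calls were lost for Nr1d1 (without control 2 or HFD 1 or 2; adjusted p up to 0.0621), Nr1d2 (7 of 9 fits, all but those without HFD+Pc 1 or 3; adjusted p up to 0.0899), Per1 (without control 1 or 2 or HFD 1, 2 or 3; adjusted p up to 0.0738) and Bhlhe40 (without control 1 or 2, HFD 1 or 2 or HFD+Pc 4; adjusted p up to 0.117). With the hour of sampling not given, the diet and a difference in hour cannot be told apart.

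Immediate early genes, which respond within minutes to hormones, feeding and handling, fell in part. Dusp1, a phosphatase of MAP kinases, was at 30.02, 18.6 and 10.6 FPKM in the controls and 5.25, 5.65 and 3.75 FPKM in HFD (-1.72 ± 0.30, limma adjusted p = 0.0131). Sgk1, a kinase induced by glucocorticoids, was at 6.88, 9.17 and 6.89 FPKM in the controls and 4.002, 5.28 and 4.26 FPKM in HFD, a stable fall (-0.65 ± 0.12, limma adjusted p = 0.0154). Btg2 and Jund fell by 1.09 and 0.51. Together 4 of 20 (20%) genes fell and 0 rose, and the median was -0.55. The summed level was 274, 219 and 138 FPKM in the controls and 109, 117 and 106 FPKM in HFD, with control 4 the control nearest to HFD. Falls numbered 1 to 8, fewest without control 2, and calls were lost for Dusp1 (without control 2; adjusted p up to 0.0534), Btg2 (7 of 9 fits, all but those without control 4 or HFD+Pc 1; adjusted p up to 0.113) and Jund (without control 1 or 2 or HFD 1, 2 or 3; adjusted p up to 0.0945).

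**Figure D3:**
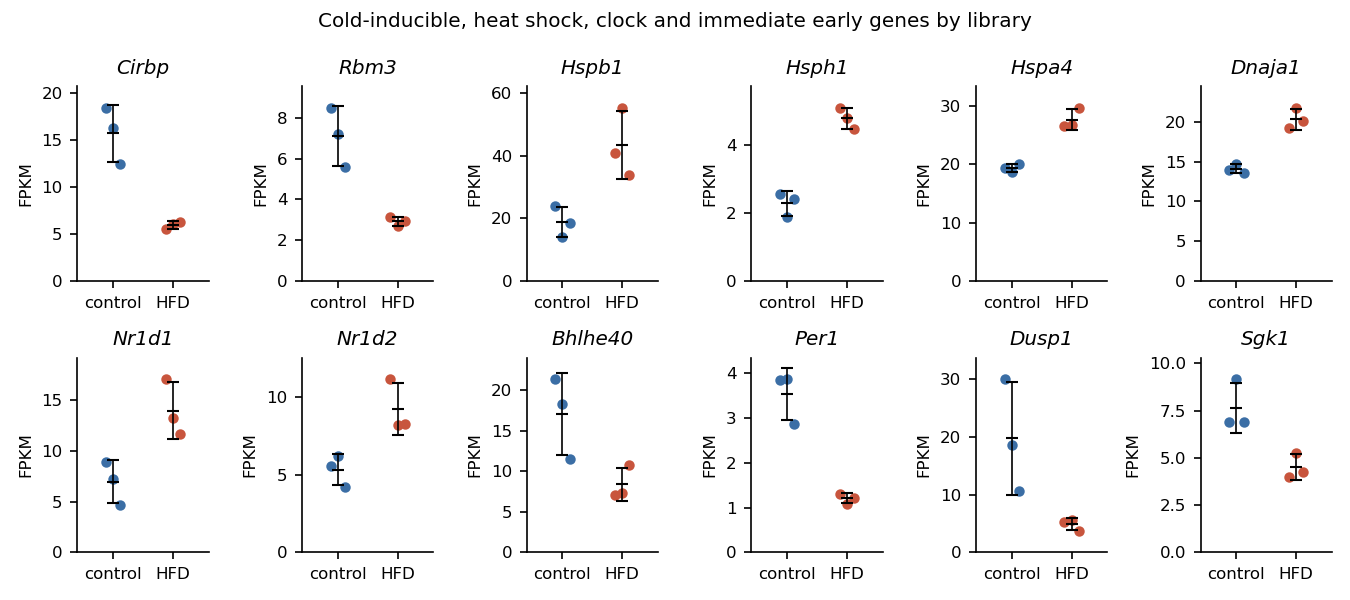
FPKM by library for 12 genes, control in blue and HFD in red, with the mean and SD of each group (n = 3) in black. Cirbp, Rbm3, Bhlhe40, Per1, Dusp1 and Sgk1 are lower in every HFD library than in every control, and the other 6 genes are higher.

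Secreted plasma proteins held few calls. Of 43 complement and coagulation factors 4 (9.3%) fell and 0 rose, against 5.55% and 4.74% of all tested genes. The median was -0.09, and with plain read totals 2 rose and 3 fell. F12, F7 and Pros1, coagulation factors and a cofactor of protein C, fell by 0.63, 0.63 and 0.50, and the complement protease C1ra by 0.41. Falls numbered 0 to 5, fewest without control 1 or 2 or HFD 1. Calls were lost for F12 (without control 1 or 2 or HFD 1 or 3; adjusted p up to 0.0692), F7 (without control 1 or 2 or HFD 1 or 3; adjusted p up to 0.0664), Pros1 (without control 1 or 2 or HFD 1; adjusted p up to 0.0698) and C1ra (8 of 9 fits, all but that without HFD 2; adjusted p up to 0.129). Serpina3m, an inhibitor of the antichymotrypsin type, was at 288, 273 and 313 FPKM in the controls and 179, 209 and 203 FPKM in HFD, a stable fall (-0.56 ± 0.11, limma adjusted p = 0.0159). Serpina4-ps1 rose from 3.28, 2.97 and 4.47 FPKM to 6.61, 7.11 and 10.4, also stable (0.97 ± 0.17, limma adjusted p = 0.0128). Serpina12, known as vaspin, fell by 0.89, a call lost in 6 of 9 fits, all but those without HFD 2 or HFD+Pc 3 or 4, with an adjusted p up to 0.126. The Serpina list, with 1 of 16 (6.25%) higher and 2 (12.5%) lower, and the acute phase list, with 1 of 29 (3.45%) higher and 2 (6.9%) lower, had medians whose sign depended on the scaling (-0.02 to 0.06 and -0.07 to 0.01).

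Acute phase proteins, which the liver makes in inflammation, varied within the groups. Saa1 was at 236, 6.53 and 14.01 FPKM in the controls and 35.7, 244 and 9.43 FPKM in HFD, high in control 1 and HFD 2 alone (0.60 ± 1.65, limma adjusted p = 0.846). Lcn2 was highest in the same 2 libraries, at 9.11, 2.06 and 4.05 FPKM in the controls and 3.82, 13.1 and 3.22 FPKM in HFD (0.29 ± 0.63, limma adjusted p = 0.798). Neither was called. Saa4, a constitutive member, rose by 0.82, a call lost in 8 of 9 fits, all but that without HFD 3, with an adjusted p up to 0.118.

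Genes of MHC class I presentation, which show peptides to CD8 T cells, fell in 6 of 19 (31.6%) cases with 0 rises and a median of -0.35. The summed level of the list overlapped between the groups, at 3514, 3654 and 3623 FPKM in the controls and 3641, 3892 and 3279 FPKM in HFD. Tap2, of the peptide transporter, was at 4.17, 3.80 and 4.08 FPKM in the controls and 2.39, 2.36 and 2.52 FPKM in HFD, a stable fall (-0.55 ± 0.08, limma adjusted p = 0.00589). H2-Q7, a nonclassical class I gene, was at 6.13, 3.19 and 5.63 FPKM in the controls and 1.71, 2.16 and 1.24 FPKM in HFD (-1.12 ± 0.21, limma adjusted p = 0.0171). Psmb8, the immunoproteasome subunit, fell from 5.84, 5.97 and 6.001 FPKM to 3.59, 4.24 and 2.57 (-0.65 ± 0.13, limma adjusted p = 0.0196). H2-Q4, H2-K1 and Tapbp fell by 0.56, 0.37 and 0.31. The groups did not overlap in any of these 6. Falls numbered 1 to 8, fewest without control 1, calls were lost for H2-Q7 (without control 1; adjusted p up to 0.0541), Psmb8 (without control 1 or 2; adjusted p up to 0.0580), H2-Q4 (without control 1, 2 or 4 or HFD 1 or 3; adjusted p up to 0.0648), H2-K1 (8 of 9 fits, all but that without HFD 2; adjusted p up to 0.135) and Tapbp (8 of 9 fits, all but that without HFD 2; adjusted p up to 0.127), and the H2-Q genes are close relatives with uncertain reads.

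Of 35 interferon response genes 3 (8.57%) fell and 0 rose, with a median whose sign depended on the scaling (-0.03 to 0.04). Bst2, tetherin, was at 186, 174 and 221 FPKM in the controls and 124, 112 and 105 FPKM in HFD, a stable fall (-0.76 ± 0.11, limma adjusted p = 0.00683). Ifi27 fell by 0.54, a call lost in 6 of 9 fits, all but those without HFD+Pc 1, 3 or 4, with an adjusted p up to 0.0897, and Psmb8, above, was the other. None of the 7 genes of class II presentation passed. Cd74, the invariant chain, was at 81.9, 54.8 and 59.8 FPKM in the controls and 60.1, 60.96 and 41.4 FPKM in HFD (-0.27 ± 0.24, limma adjusted p = 0.495). The class II gene H2-Eb1 (-0.18) and the protease Ctss (-0.03), also not called, changed sign when single libraries were left out.

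Ribosomal proteins make up the machinery of translation. Of 78 cytosolic ribosomal proteins 71 had a negative difference, with a median of -0.23, and 6 (7.69%) fell with 0 rises, near the 5.55% of all tested genes. The median was -0.16 with plain read totals, where 2 fell and 0 rose. Rpl8 was at 191, 162 and 147 FPKM in the controls and 111, 112 and 99.7 FPKM in HFD (-0.62 ± 0.12, limma adjusted p = 0.0160). Rps9 (-0.52), Rpl23 (-0.51), Rpl37 (-0.46) and Rps3 (-0.39) also fell. Falls numbered 0 to 9, fewest without control 1. Their reads are uncertain, since pseudogene copies are many, and calls were lost for Rpl8 (without control 1; adjusted p up to 0.0508), Rps9 (7 of 9 fits, all but those without HFD+Pc 1 or 4; adjusted p up to 0.105), Rpl23 (8 of 9 fits, all but that without HFD+Pc 1; adjusted p up to 0.122), Rpl37 (6 of 9 fits, all but those without control 4 or HFD+Pc 1 or 4; adjusted p up to 0.103) and Rps3 (8 of 9 fits, all but that without HFD+Pc 1; adjusted p up to 0.125).

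Among 75 nuclear genes of oxidative phosphorylation 12 (16%) fell and 0 rose, with a median of -0.16. With plain read totals the median was -0.08 and 6 fell. Sdhd, an anchor of complex II, was at 170.1, 163 and 174 FPKM in the controls and 117, 111 and 117 FPKM in HFD (-0.56 ± 0.08, limma adjusted p = 0.00703). Ndufa8, of complex I, was at 67.7, 61.3 and 72.7 FPKM in the controls and 44.4, 38.5 and 46.1 FPKM in HFD (-0.63 ± 0.11, limma adjusted p = 0.0126). Ndufb8, also of complex I, fell from 12.8, 12.2 and 14.1 FPKM to 8.19, 8.91 and 7.85 (-0.59 ± 0.11, limma adjusted p = 0.0160). These 3 falls were stable. Uqcr11 (-0.79), Ndufs6 (-0.77) and Atp5o (-0.43) fell with calls lost for Uqcr11 (without control 1, 2 or 4 or HFD 2 or 3; adjusted p up to 0.0680), Ndufs6 (without control 1; adjusted p up to 0.0552) and Atp5o (without control 1 or 2; adjusted p up to 0.0516), and the remaining 6 falls lay between -0.49 and -0.33. Falls numbered 3 to 14, fewest without control 1. None of the 15 transcripts encoded in mitochondrial DNA passed, and the most abundant, mt-Co1, was at 13268, 17393 and 15162 FPKM in the controls and 17064, 15214 and 21226 FPKM in HFD (0.22 ± 0.16, limma adjusted p = 0.408). The share of these transcripts in all reads was 5.67 to 6.96% in the controls and 6.17 to 8.72% in HFD.

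**Figure D4:**
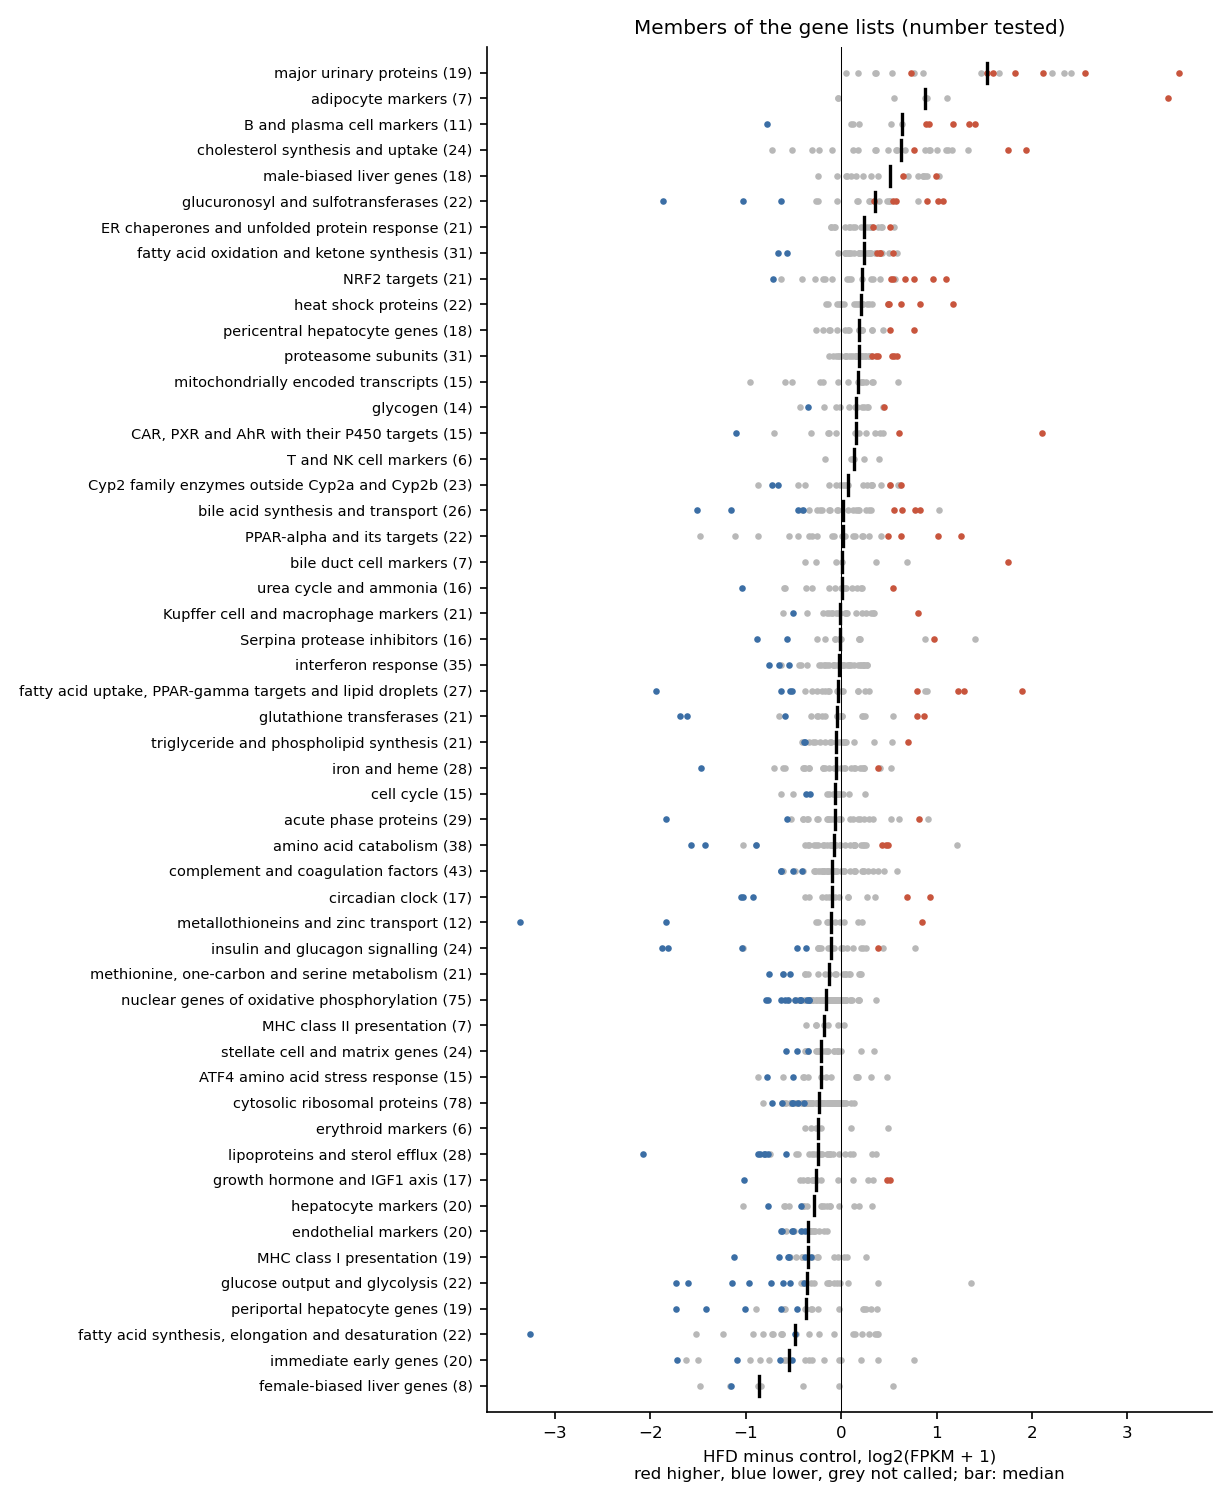
Each point is a tested member of a gene list, placed by its difference on the log2(FPKM + 1) scale, with rises in red, falls in blue, other genes in grey and the list median as a black bar. Lists run from a median of -0.86 for female-biased genes to 1.53 for major urinary proteins, and 9 lists with medians near 0 change sign with the scaling.

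Along the lobule, hepatocytes near the portal vein make glucose and urea and those near the central vein carry most P450 enzymes. Periportal genes fell in 5 of 19 (26.3%) cases with 0 rises (median -0.37), and pericentral genes rose in 2 of 18 (11.1%) with 0 falls (median 0.19). Aldh1b1, a mitochondrial aldehyde dehydrogenase, was at 24.1, 25.2 and 31.4 FPKM in the controls and 11.98, 15.6 and 11.3 FPKM in HFD, a stable fall (-1.0040 ± 0.15, limma adjusted p = 0.00750). Etnppl, a phospholyase, and Mfsd2a, a lysolipid carrier, fell by 0.64 and 1.42, beside Pck1 and Igfbp2. Aldh1a1, a retinaldehyde dehydrogenase, was at 337, 280.5 and 189 FPKM in the controls and 524, 401 and 421 FPKM in HFD and rose (0.77 ± 0.20, limma adjusted p = 0.0432), beside Cyp2c29. Falls numbered 2 to 6, fewest without control 2 or HFD 2, rises 0 to 1, with 0 in 6 of the 9 fits, and calls were lost for Etnppl (without control 1 or 2 or HFD 2 or 3; adjusted p up to 0.0709), Mfsd2a (6 of 9 fits, all but those without HFD 3 or HFD+Pc 1 or 3; adjusted p up to 0.135) and Aldh1a1 (7 of 9 fits, all but those without control 1 or HFD+Pc 1; adjusted p up to 0.120). The difference between these 2 lists was not tested.

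Hepatocyte markers summed to 72024, 71272 and 71398 FPKM in the controls and 51664, 57282 and 51043 FPKM in HFD. Rbp4, the retinol carrier, was at 2365, 2419 and 2328 FPKM in the controls and 1871, 1787 and 1653 FPKM in HFD (-0.42 ± 0.10, limma adjusted p = 0.0354) and fell, like Apoa1, so that 2 of 20 (10%) were called and the median was -0.29. The call of Rbp4 was lost in 8 of 9 fits, all but that without HFD+Pc 1, with an adjusted p up to 0.108. Falls numbered 0 to 2, fewest without control 1, 2 or 4 or HFD 1. Alb alone took 9.71 to 10.1% of all FPKM in the controls and 6.69 to 7.10% in HFD. The 505 genes that rose took 2.70 to 3.02% and 5.37 to 5.64%, and the 591 that fell took 8.75 to 9.78% and 4.95 to 5.59%.

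Endothelial markers, which stand for the vessel and sinusoid lining, were among the lists with falls alone. All 20 had a negative difference, with a median of -0.34, 6 (30%) fell and 0 rose. Kdr, the receptor for VEGF, was at 10.7, 11.6 and 11.5 FPKM in the controls and 6.49, 8.64 and 5.93 FPKM in HFD, a stable fall (-0.63 ± 0.11, limma adjusted p = 0.0137). Stab2, a scavenger receptor of sinusoidal cells, was at 9.76, 10.8 and 11.6 FPKM in the controls and 6.94, 8.22 and 6.56 FPKM in HFD (-0.51 ± 0.10, limma adjusted p = 0.0156). Stab1, Flt4, Bmp2 and Ptprb fell by 0.62, 0.51, 0.42 and 0.38. HFD 2 was the HFD library nearest to the controls in 5 of these 6, Bmp2 being the exception. The summed level was 227, 222 and 247 FPKM in the controls and 178, 202 and 161 FPKM in HFD. Falls numbered 1 to 7, fewest without control 2, and calls were lost for Stab2 (without control 2; adjusted p up to 0.0516), Stab1 (without control 1, 2 or 4 or HFD 1 or 3; adjusted p up to 0.0897), Flt4 (without control 1, 2 or 4 or HFD 1 or 3; adjusted p up to 0.0725), Bmp2 (6 of 9 fits, all but those without HFD 1 or HFD+Pc 1 or 4; adjusted p up to 0.107) and Ptprb (6 of 9 fits, all but those without HFD 2 or HFD+Pc 1 or 4; adjusted p up to 0.0914).

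Stellate cell and matrix genes fell in 3 of 24 (12.5%) cases with 0 rises (median -0.21). Cygb, cytoglobin, Ecm1 and Col4a1, a basement membrane collagen, fell by 0.46, 0.58 and 0.35, calls lost for Cygb (without control 2; adjusted p up to 0.0529), Ecm1 (without control 2 or 4 or HFD 1 or 3; adjusted p up to 0.0812) and Col4a1 (8 of 9 fits, all but that without control 2; adjusted p up to 0.125). Macrophage markers had no common direction, with 1 of 21 (4.76%) higher, 1 (4.76%) lower and a median whose sign depended on the scaling (-0.02 to 0.06). Lyz2, lysozyme, was at 54.6, 43.2 and 69.6 FPKM in the controls and 119, 82.2 and 92.2 FPKM in HFD (0.81 ± 0.21, limma adjusted p = 0.0419), and Lgals3 fell by 0.50, calls lost for Lyz2 (6 of 9 fits, all but those without control 4 or HFD+Pc 1 or 4; adjusted p up to 0.116) and Lgals3 (8 of 9 fits, all but that without HFD 2; adjusted p up to 0.141). The summed macrophage level was 585 to 804 FPKM in the controls and 576 to 771 FPKM in HFD.

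Transcripts of antibody-making cells rose in part. Igkc, the kappa light chain constant region, was at 22.6, 16.9 and 17.9 FPKM in the controls and 46.3, 42.2 and 71.8 FPKM in HFD (1.41 ± 0.21, limma adjusted p = 0.00747). Jchain, which joins secreted IgA and IgM, was at 1.51, 0.889 and 1.25 FPKM in the controls and 3.01, 2.45 and 4.16 FPKM in HFD (0.91 ± 0.16, limma adjusted p = 0.0130). Both rises were stable and without overlap. Ighg2c and Igha, of the gamma and alpha chains, rose by 1.17 and 0.88. Iglc1, of the lambda chain, was at 0.589, 0.389 and 0.365 FPKM in the controls and 5.40, 1.80 and 1.70 FPKM in HFD. Igkj3, a kappa joining segment of 38 bases for which the value of HFD 2 is 1 read, was at 0, 0 and 0 FPKM in the controls and 11.5, 1.53 and 4.70 FPKM in HFD. Both were kept through HFD alone. The B cell surface genes Cd79a and Ighd were not called (0.10 and 0.12). Sdc1, used as a plasma cell marker but also made by hepatocytes, was at 90.001, 93.9 and 68.8 FPKM in the controls and 47.3, 48.4 and 49.3 FPKM in HFD and fell (-0.78 ± 0.16, limma adjusted p = 0.0189). Of the list 5 of 11 (45.5%) rose, or 4 of 10 (40%) without Iglc1, rises numbered 2 to 5, fewest without control 2, and calls were lost for Ighg2c (without control 1, 2 or 4 or HFD 2; adjusted p up to 0.0602), Igha (without control 2 or HFD 2 or 3; adjusted p up to 0.0628) and Sdc1 (without control 1 or 2 or HFD 1; adjusted p up to 0.0637).

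Cfd, the complement factor adipsin that is best known from fat cells, was at 0.116, 0.128 and 0 FPKM in the controls and 21.8, 9.92 and 5.23 FPKM in HFD. Its highest control value is under the floor of 3 reads, and it was kept through HFD alone. Of the fat cell markers, Adipoq, adiponectin, was at 0 in all controls and at 1.54, 0 and 0.129 FPKM in HFD, and Plin1, perilipin, at 0 in all controls and at 0.164, 0 and 0 FPKM in HFD. HFD 2, with Cfd at 9.92 FPKM, thus had both at 0. Car3, which hepatocytes also make, was at 736, 455 and 157 FPKM in the controls and 969, 823 and 669 FPKM in HFD and was not called (1.11 ± 0.47, limma adjusted p = 0.165). Cidec, a droplet protein, differed by 0.87 and was not called. Plin4, also a droplet protein, was kept through HFD alone, so no test of it is given. Among 7 tested markers 1, Cfd, was called by limma. Of the 5 not kept through HFD alone 0 were called. An unadjusted limma p under 0.05 was found in 3 of those 5, against 28% of all tested genes.

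Krt23, a keratin listed with bile duct markers, was at 0.649, 1.54 and 1.70 FPKM in the controls and 6.55, 7.26 and 5.85 FPKM in HFD, a stable rise without overlap (1.75 ± 0.26, limma adjusted p = 0.00754). The defining duct keratins Krt19 and Krt7 stayed under the filter, at 0.721, 0.857 and 0.209 FPKM in the controls and 0.529, 1.16 and 0.641 FPKM in HFD for Krt19 and no more than 0.110 FPKM for Krt7. Krt8 and Krt18, shared with hepatocytes, differed by 0.36 and 0.01, not called. No T and NK cell (6), neutrophil (4) or erythroid (6) marker passed. Among them the neutrophil protein S100a8 was at 2.93, 0.594 and 1.19 FPKM in the controls and 4.40, 1.85 and 6.26 FPKM in HFD, and the globin gene Hbb-bs at 197, 127 and 178 FPKM in the controls and 185, 109.5 and 98.3 FPKM in HFD, both with overlapping groups. Of cell cycle genes 2 of 15 (13.3%) fell, Cdkn2c (-0.37) and Cdk4 (-0.33), against 5.55% of all tested genes, and with plain read totals 0 rose and 0 fell. Calls were lost for Cdkn2c (7 of 9 fits, all but those without HFD+Pc 1 or 4; adjusted p up to 0.1001) and Cdk4 (all 9 fits; adjusted p up to 0.152).

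**Figure D5:**
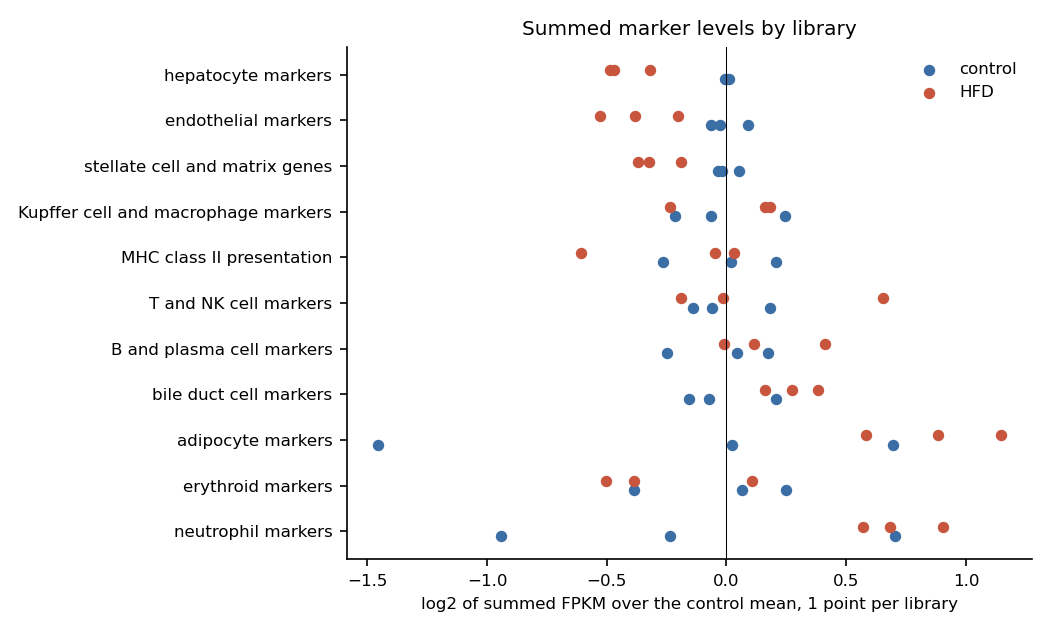
Summed FPKM of each marker list in each library, as log2 over the mean of the 3 controls, with control in blue and HFD in red. Hepatocyte, endothelial and stellate cell sums are lower in all 3 HFD libraries than in all 3 controls, and the other lists overlap.

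The hepatocyte, endothelial and stellate cell sums moved beside the gene changes above, and their part in the changes of single genes was not tested. Among the largest rises in FPKM were also Phyh and Ces3a, outside the lists. Phyh, of peroxisomal alpha-oxidation, was at 761, 883 and 764 FPKM in the controls and 1054, 1134 and 1118 FPKM in HFD (0.46 ± 0.11, limma adjusted p = 0.0295). Ces3a, a carboxylesterase, was at 559, 454 and 305 FPKM in the controls and 711, 729 and 657 FPKM in HFD (0.71 ± 0.19, limma adjusted p = 0.0431). Neither gene overlapped between the groups, and calls were lost for Phyh (6 of 9 fits, all but those without HFD+Pc 1, 3 or 4; adjusted p up to 0.0921) and Ces3a (8 of 9 fits, all but that without control 1; adjusted p up to 0.1004).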

How the data were processed

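Liver RNA of C57BL/6 mice was isolated with Trizol and sequenced as Illumina libraries, per the labels' protocols. The submitters' processing notes name HISAT2 2.0.5 and the build GRCm39. The authors deposited 1 table of FPKM, per the file headers. The counting tool, annotation and use of strand are not given in the sources used here. Of 53700 Ensembl identifiers 52093 were given a symbol from a name table, and 307 other models carry identifiers of the authors. For all 26278 genes above 0 the FPKM of the libraries could be written as whole numbers of reads (tolerance 0.02 read), which gave the read totals. The divisor behind the FPKM was 97.4 to 108% of those totals, a rescaling that no source states. It was 98.8, 97.4 and 100.3% in control 1, 2 and 4 and 108.4, 103.4 and 101.5% in HFD 1, 2 and 3. Every HFD library was thus above every control.

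Genes with at least 1 FPKM in 3 of the 6 libraries were tested with limma 3.58.1 in R 4.3.3 (lmFit, eBayes with trend and robust) on log2(FPKM + 1). All 9 libraries were in 1 model with no covariate, with a 2-sided test and Benjamini-Hochberg adjustment over all tested genes. The limma fit was also run on simulated reads, with changes larger than most found here. That run gives no error rate for these data. Other tables came from scipy 1.17.1, pandas 2.3.3 and numpy 2.4.6 under Python 3.11.15. The members, the 54 gene lists and the rule for named genes were chosen with earlier results of these data known, so no list was tested. No HFD or control library was dropped or imputed.

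Named were the 12 largest rises and falls without overlap and the 8 largest in FPKM. To these came up to 3 genes per direction and list by lowest adjusted p (for a list with no call, up to 3 by level) and a panel of 19 metabolic and liver genes. Of 186 such genes 183 were tested. Further list members and genes outside the lists were named after their values were seen. A RefSeq table of promoters (GRCm38.p6) matched 141 of them. Alternatives were other pseudocounts, filters, scalings, limma-voom on recovered reads, a replicate block and leaving out each library. Some genes are not reported here.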

Additional observations from a re-analysis of the deposited data

How the results depend on the processing

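The alternatives changed how many genes were called. Each of the 156 called genes named by the rule kept its sign under every alternative in which it was tested. These genes were chosen by their call on the same libraries, so a kept sign is no separate evidence of direction. The count of 1096 (505 higher, 591 lower) came to 209 (102 and 107) with no filter, where 26278 genes were tested. It was 680 (310 and 370) with the control and HFD libraries alone, where fewer samples gave the spread. Left-out libraries gave 357 to 1143 calls, 173 to 522 of them higher and 184 to 621 lower. A pseudocount of 0.1, a minimum of 0.1 FPKM, median scaling, quantile normalization, limma-voom and plain eBayes gave 1044, 792, 1104, 1225, 1345 and 1058. FPKM from plain read totals, added after the data were seen, gave 842 higher and 379 lower, with a shift of the median by 0.06. That setting multiplies the FPKM of each library by its divisor as a share of its reads. This share was higher in every HFD library than in every control. Of these 156 genes, 143 passed under that scaling, 156 under median scaling and 154 with limma-voom, which used the same divisors as the main fit. Fewer passed with no filter (44), with the control and HFD libraries alone (110) and with a minimum of 0.1 FPKM (122).

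Replicate numbers are shared between the groups, and the main fit took no pairing from them. Deviations of the 6 same-numbered pairs correlated at -0.14 to 0.0568 and those of other pairs at -0.118 to 0.151. These correlations run over all tested genes and cannot show whether a smaller set of genes is paired, which was not tested. With the replicate block 230 genes passed (101 higher, 129 lower), and 56 of the 156 named calls.

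Among the 183 named genes tested, signs reversed in 8, and these were not called. With single libraries left out, Cyp7a1 ranged from -0.44 (without control 4) to 0.23 (without control 1) and Saa1 from -0.61 (without HFD 2) to 2.10 (without control 1). Lcn2 ranged from -0.26 (without HFD 2) to 0.75 (without control 1), Fasn from -0.14 (without HFD 3) to 0.63 (without control 4) and Ccl5 from -0.28 (without HFD 1) to 0.38 (without HFD 3). Trbc2 ranged from -0.064 (without control 2) to 0.25 (without control 1), H2-Eb1 from -0.30 (without control 2) to 0.011 (without control 1) and Ctss from -0.20 (without HFD 2) to 0.21 (without HFD 3). Ctss was also at 0.017 with quantile normalization, 0.065 with the replicate block and 0.046 with plain read totals, where Cyp7a1 was at 0.032. The cause was not tested. With 3 libraries a group and 16562019 to 18930316 reads, small changes and genes near 1 FPKM are the least secure, since the floor of 3 reads in a 1 kb gene is 0.160 to 0.178 FPKM.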

Other observations

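Stable changes also lay in genes outside the lists, chosen after their values were seen. Slc25a47, a mitochondrial carrier found mainly in liver, was at 288, 304 and 299 FPKM in the controls and 141, 102 and 124 FPKM in HFD and fell without overlap (-1.29 ± 0.13, limma adjusted p = 0.00223). Dio1, the deiodinase that makes active thyroid hormone, was at 52.98, 47.6 and 39.1 FPKM in the controls and 116, 108 and 88.8 FPKM in HFD and rose (1.15 ± 0.14, limma adjusted p = 0.00399). Aox3, an aldehyde oxidase closely related to Aox1, was at 40.5, 44.9 and 25.6 FPKM in the controls and 106, 168 and 91.6 FPKM in HFD (1.68 ± 0.27, limma adjusted p = 0.0105). Clstn3, a calsyntenin, was at 1.72, 1.65 and 1.06 FPKM in the controls and 8.64, 5.58 and 5.67 FPKM in HFD (1.61 ± 0.19, limma adjusted p = 0.00434). Tubb4b, a tubulin, and Lonp2, a peroxisomal protease, rose by 1.15 and 0.68. Cav1, caveolin of surface pits, was at 0.869, 1.35 and 1.12 FPKM in the controls and 3.20, 4.26 and 6.10 FPKM in HFD and rose (1.36 ± 0.24, limma adjusted p = 0.0134), while other genes of vessel lining fell, among them Cldn5, a claudin of tight junctions (-0.74), Ephb4, a receptor of veins (-0.48), Erg, an endothelial transcription factor (-0.46), and Adgrf5 (-0.72).

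Some lysosomal enzymes were among the stable falls. Ctsl, the protease cathepsin L, was at 119.8, 102 and 116 FPKM in the controls and 58.1, 63.9 and 61.6 FPKM in HFD (-0.87 ± 0.09, limma adjusted p = 0.00223). Gm2a, the activator of ganglioside breakdown, was at 26.7, 27.4 and 33.6 FPKM in the controls and 14.3, 18.5 and 13.8 FPKM in HFD (-0.87 ± 0.12, limma adjusted p = 0.00589). Gusb and Arsg, hydrolases of sugars and sulfates, fell by 0.73 and 0.95. Of genes of mitochondrial protein import, Samm50 fell by 0.82, Timm10 by 0.62 and Timm23 by 0.54. RNA-binding proteins were found in both directions. Hnrnpl (-0.56), Hnrnpa0 (-0.49) and the poly(A)-binding Pabpc4 (-0.59) fell, whereas Tardbp, a splicing regulator, was at 8.28, 5.31 and 7.93 FPKM in the controls and 12.8, 11.6 and 12.1 FPKM in HFD and rose (0.71 ± 0.13, limma adjusted p = 0.0154). How many members of these groups did not change was not counted, so the examples describe single genes.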
